A study of Homo sapiens with 18 samples.

Results

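The MDA-MB-231 cells described here are a knockout of IMPDH2 to which IMPDH2 was given back with no localisation signal named in the labels, and they were set against the knockout itself. The members were all libraries whose labels place them in these groups, 3 of the reconstituted knockout (KO+IMPDH2) and 3 of the knockout (KO), which is 6 of the 18 libraries in the series. MDA-MB-231 is an established triple-negative breast cancer cell line. The series measured messenger RNA in 6 groups of 3 libraries each: KO+IMPDH2 (genotype label IMPDH2-WT), KO given a nuclear form of IMPDH2, KO given a cytosolic form, KO grown with 400 µM guanosine, KO without guanosine, and unedited cells (WT). All groups shared DMEM with serum, and guanosine was present in the KO+guanosine group alone, so KO+IMPDH2 and KO differ by the returned gene according to the labels. The labels do not say by which vector or promoter IMPDH2 was returned, whether a line was derived from 1 clone, or whether libraries of the same group are from different cultures, so p-values measure the spread between these libraries, which may be technical. The line is named MDA-MB-231 in the culture protocol, but the number at the end of the cell line label goes up by 1 with each sample, and 1 line was assumed.

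IMPDH2 is inosine monophosphate dehydrogenase, an enzyme that uses NAD to convert IMP to XMP at the branch point between adenine and guanine nucleotides. GMP synthetase then makes GMP, and kinases carry it to GTP, which cells need for RNA and DNA synthesis, ribosome production and signalling by GTP-binding proteins. A cell that lacks the enzyme can still make GMP through its sister enzyme IMPDH1 or by salvage of guanine and guanosine, and IMPDH2 is the form that proliferating cells usually raise. IMPDH proteins are found in the cytosol, where they can form filaments, and also in the nucleus.

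The estimated reads assigned to transcripts numbered 53794338 to 55569566 in the KO+IMPDH2 libraries and 51595209 to 59694787 in the KO libraries, within a series range of 45865079 to 63276484. Mitochondrially encoded genes took 7.41 ± 0.19% of the reads in KO+IMPDH2 and 7.72 ± 0.17% in KO, against 5.18 ± 0.03% in WT (SD, n = 3 each). On the second principal component, which held 10.7% of the variance, the KO+IMPDH2 libraries lay between -9.10 and -5.47, against 43.7 to 47.0 for the KO libraries. Levels are given throughout as CPM, read counts relative to the library total after TMM scaling. Differences are given as log2 fold changes of KO+IMPDH2 over KO with approximate standard errors. Adjusted p-values are those of edgeR's quasi-likelihood test, with the Benjamini-Hochberg method over the 19252 genes tested, and a gene passed at an adjusted p under 0.05.

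IMPDH2 itself rose 12.8-fold. It stood at 532, 543 and 522 CPM in the KO+IMPDH2 libraries, against 41.3, 42.3 and 41.2 CPM in the KO libraries, and its log2 fold change was 3.68 ± 0.033 (adjusted p = 1.12e-21). The knockout libraries thus still held IMPDH2 reads, 13.1% of the WT mean, and the reconstituted libraries held 167% of it. Of the 6 groups KO+IMPDH2 had the highest level, followed by the cytosolic form at 379 ± 14 CPM, WT at 319 ± 0.56 CPM, the nuclear form at 297 ± 13 CPM, KO, and KO+guanosine at 22.1 ± 0.11 CPM (SD, n = 3 each), and no group overlapped its neighbour in that order. IMPDH1, the sister enzyme, had 52.4, 53.1 and 51.6 CPM in the KO+IMPDH2 libraries, against 51.1, 50.5 and 50.4 CPM in the KO libraries. Its log2 fold change of 0.047 ± 0.032 did not pass (adjusted p = 0.235).

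The transcripts to which the IMPDH2 reads were assigned differed as well. In the authors' estimates the transcript IMPDH2-201, 1 of 36 annotated for the gene, took 96.7%, 95.1% and 96.2% of the IMPDH2 reads in the KO+IMPDH2 libraries. In the KO libraries it took 0%, 52.2% and 39.3%, and in the WT libraries 76.6%, 70.0% and 72.8%. The other annotated transcripts together came to 21.2 ± 4.7 CPM of library totals in KO+IMPDH2 and 30.5 ± 12 CPM in KO, against 81.0 ± 9.8 CPM in WT (SD, n = 3 each). Nearly all IMPDH2 reads of the reconstituted cells therefore lay on 1 transcript model, and its share in KO varied so widely between libraries that it is a poor estimate there.

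Another 2 loci moved with IMPDH2, in opposite directions. IMPDH2 lies at chr3:49024325-49029408 and QRICH1, a transcriptional regulator of the integrated stress response, at chr3:49029707-49094363 (GRCh38), so that the genes are close neighbours. ENSG00000290315, an identifier that the files list without a symbol and that has no position in GENCODE 29, had 237, 227 and 216 CPM in the KO+IMPDH2 libraries, against 3.54, 3.33 and 3.20 CPM in the KO libraries. QRICH1 had 13.0, 7.43 and 12.8 CPM in the KO+IMPDH2 libraries, against 92.2, 95.4 and 92.5 CPM in the KO libraries, which put it among the coding genes with the largest falls (log2 fold change -3.08 ± 0.16, adjusted p = 4.25e-11). In KO+guanosine, which carries no returned gene, QRICH1 stood at 107 ± 3.7 CPM and in WT at 99.3 ± 4.1 CPM, whereas the cytosolic and nuclear forms gave 18.4 ± 5.6 and 32.2 ± 1.8 CPM (SD, n = 3 each). ENSG00000290315 and QRICH1 together came to 238 ± 11 CPM in KO+IMPDH2 and 96.7 ± 1.8 CPM in KO, and with IMPDH2 added to 769.7 ± 16 and 138 ± 2.3 CPM, a 5.57-fold difference in place of 12.8-fold. Reads were assigned to transcripts by estimation, so how reads of the returned gene were shared among these 3 loci was not tested, and the fall of QRICH1 is given as uncertain.

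**Figure D1:**
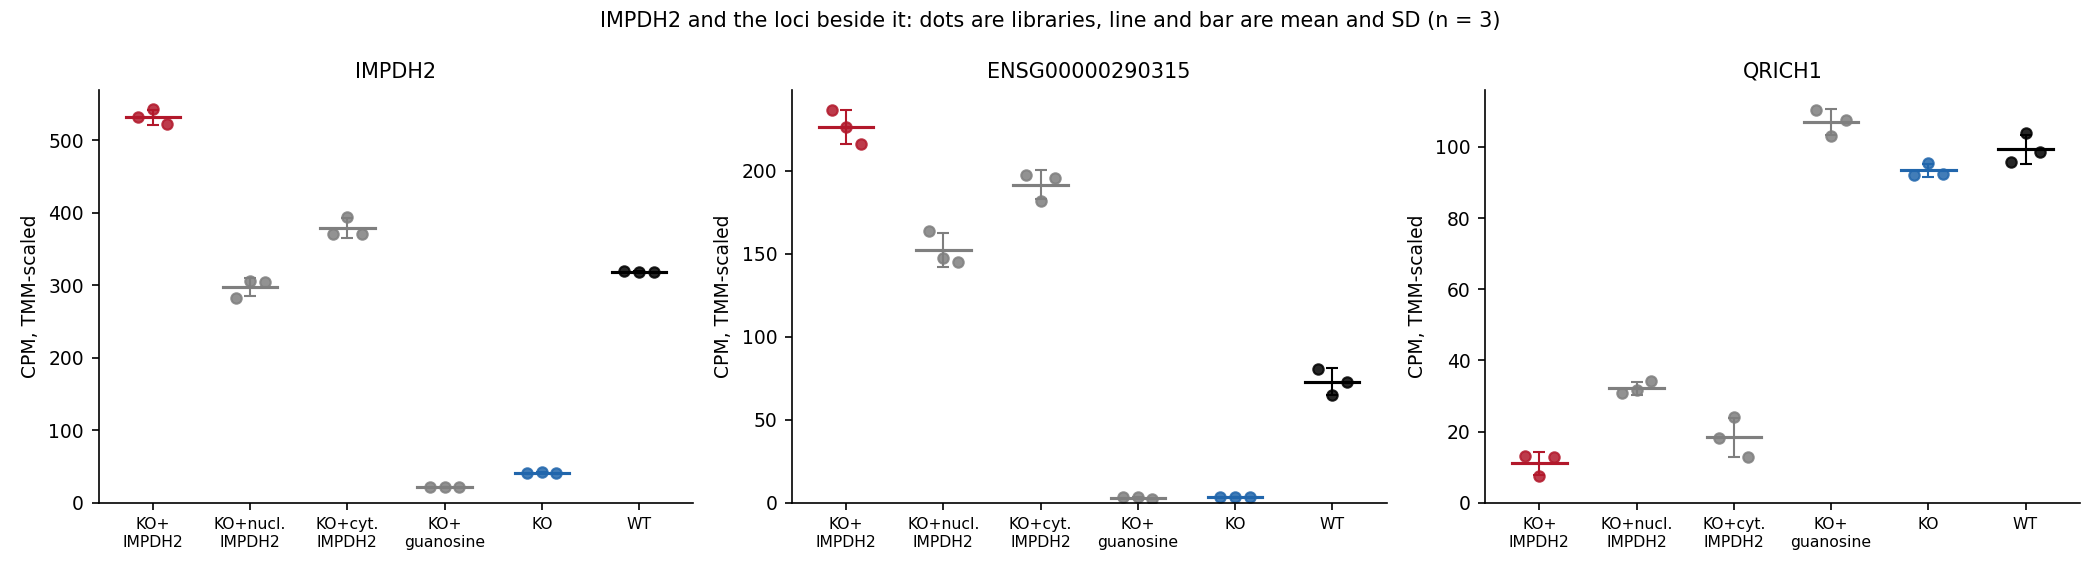
CPM of IMPDH2, ENSG00000290315 and QRICH1 in each library of the 6 groups, with KO+IMPDH2 at the left; dots are libraries, the line and bar the mean and SD of 3. IMPDH2 and ENSG00000290315 were high and QRICH1 low in every group that carries a returned IMPDH2, with the 3 KO+IMPDH2 libraries at 522 to 543 CPM of IMPDH2 against 41.2 to 42.3 CPM in KO.

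Across the transcriptome 9781 genes passed, 4945 higher in KO+IMPDH2 (25.7% of the genes tested) and 4836 lower (25.1%). Most differences were small, since 955 genes differed by at least 2-fold, 253 higher and 702 lower. The 3 KO+IMPDH2 values lay wholly above or below the 3 KO values for 11201 genes, or 58.2% of those tested. Protein-coding genes were called higher more often than lower, 4646 and 3663 of 14000, with a median log2 fold change of 0.019. Of the 5252 other genes 299 were called higher and 1173 lower, with a median of -0.19. The median over all genes tested was -0.015, and TMM scaling moved every log2 fold change by 0.080 relative to scaling by library totals. Because bulk RNA was measured, fewer cells in a state and less RNA per cell cannot be told apart in any of the results below.

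**Figure D2:**
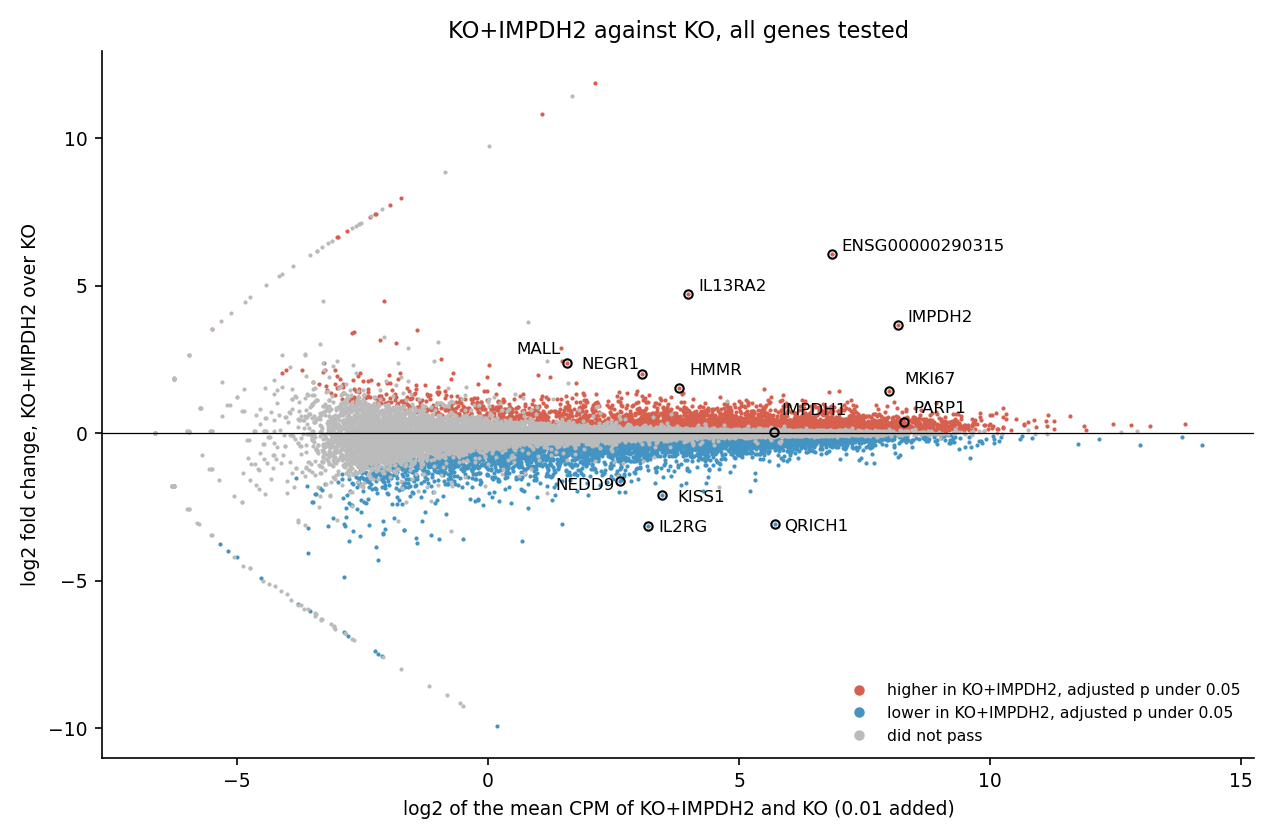
Log2 fold change of KO+IMPDH2 over KO against the log2 of the mean CPM of both groups (0.01 added) for the 19252 genes tested; red genes were called higher, blue lower, grey did not pass. IL13RA2, IMPDH2 and ENSG00000290315 stand above the other well-measured genes and QRICH1 and IL2RG below them; the curved outer arms are genes with no or almost no reads in 1 of the groups, whose fitted values are not bounds.

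The cell division genes rose together. All 40 tested members of a list of G2/M and mitosis genes were called higher in KO+IMPDH2 and 0 lower, with a median log2 fold change of 0.90 and a range of 0.42 to 1.51, beside a median of -0.015 over all genes tested. Summed over the list, the level was 5099, 5244 and 5300.0 CPM in the KO+IMPDH2 libraries, against 2846, 2794 and 2719 CPM in the KO libraries. Each KO+IMPDH2 library was thus well above each KO library. The summed level was higher still in WT, at 7703, 7871 and 7645 CPM. The promoters of these genes are shown next, because periodic expression of such genes is known to depend on short elements just upstream of the start site.

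In RefSeq promoter windows of 300 bases (250 before and 50 after the start, GRCh38.p14), 34 of the 40 genes had a window. CCAAT, the letters bound by NF-Y, was searched on both strands and was held by 27 of the 34 (79.4%), against 35.7% of all 27305 windows. It was not particular to this list, since 20 of 32 windows of DNA replication genes (62.5%) and 8 of 15 of NRF2 targets (53.3%) held it. TTTGAA, the core of the cell cycle homology region bound by the DREAM and MMB complexes, was held by 26 (76.5%), against 15.4% of all windows. Both were held by 22 (64.7%), against 6.08%, and the motifs share no fixed overlap although single sites can touch. Of 32 windows of DNA replication genes, 15 (46.9%) held TTTCCCGC or TTTGGCGC, letters bound by E2F factors, against 2.31% of all windows and 3.6% of those of genes tested. Of 30 windows of interferon-stimulated genes, 21 (70.0%) held GAAANNGAA, the core bound by interferon regulatory factors, against 8.29%. These are matches of letters in a window and not measured sites. The windows below, 5′ to 3′ on the gene's strand, belong to the members with a large rise that hold the letters of their list: HMMR (chr5:163460382-163460681, plus strand), MKI67 (chr10:128126374-128126673, minus strand), PCNA (chr20:5126573-5126872, minus strand) and IFI44 (chr1:78649539-78649838, plus strand). Capitals mark CCAAT or its complement ATTGG and TTTGAA in HMMR and MKI67, TTTCCCGC on the other strand (read here as its complement) in PCNA, and GAAANNGAA on the other strand in IFI44.
HMMR: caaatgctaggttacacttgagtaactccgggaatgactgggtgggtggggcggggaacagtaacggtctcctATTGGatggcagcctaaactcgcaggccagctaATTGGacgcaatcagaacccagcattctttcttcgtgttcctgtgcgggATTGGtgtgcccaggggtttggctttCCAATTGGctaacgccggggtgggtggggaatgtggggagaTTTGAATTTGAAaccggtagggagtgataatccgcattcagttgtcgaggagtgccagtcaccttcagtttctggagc
MKI67: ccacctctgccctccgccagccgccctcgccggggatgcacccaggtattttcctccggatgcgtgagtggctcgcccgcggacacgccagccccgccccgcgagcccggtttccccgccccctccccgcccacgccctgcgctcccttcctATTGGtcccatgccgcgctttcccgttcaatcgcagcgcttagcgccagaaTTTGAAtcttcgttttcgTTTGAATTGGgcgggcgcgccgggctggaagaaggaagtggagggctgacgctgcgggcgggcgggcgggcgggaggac
PCNA: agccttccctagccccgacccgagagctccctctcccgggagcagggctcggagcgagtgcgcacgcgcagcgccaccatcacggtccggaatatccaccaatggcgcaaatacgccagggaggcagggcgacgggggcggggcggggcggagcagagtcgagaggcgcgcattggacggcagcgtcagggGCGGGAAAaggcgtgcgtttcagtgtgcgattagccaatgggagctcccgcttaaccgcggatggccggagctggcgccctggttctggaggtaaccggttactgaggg
IFI44: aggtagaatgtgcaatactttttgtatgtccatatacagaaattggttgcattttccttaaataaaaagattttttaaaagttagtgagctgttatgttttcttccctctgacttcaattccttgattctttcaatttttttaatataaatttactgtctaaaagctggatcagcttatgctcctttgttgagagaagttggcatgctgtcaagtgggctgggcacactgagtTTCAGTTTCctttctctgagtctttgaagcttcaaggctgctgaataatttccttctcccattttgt

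HMMR, a spindle-binding protein and hyaluronan receptor, had 19.4, 20.6 and 22.0 CPM in the KO+IMPDH2 libraries, against 7.60, 7.35 and 6.80 CPM in the KO libraries and the largest rise of the list, with a log2 fold change of 1.51 ± 0.060 (adjusted p = 1.26e-12). MKI67, the Ki-67 protein that coats mitotic chromosomes and marks cycling cells, had 389, 357 and 371 CPM in the KO+IMPDH2 libraries, against 133, 148 and 135 CPM in the KO libraries (1.43 ± 0.049, adjusted p = 2.63e-13). Both genes rose more than 2-fold with no overlap between the groups. PLK1, the polo-like kinase that drives entry into mitosis, had 82.6, 84.0 and 82.1 CPM in the KO+IMPDH2 libraries, against 34.3, 34.0 and 34.0 CPM in the KO libraries (1.28 ± 0.029, adjusted p = 1.09e-15). DLGAP5, which stabilises spindle microtubules, had 155, 162 and 164 CPM in the KO+IMPDH2 libraries, against 64.3, 61.2 and 57.5 CPM in the KO libraries (1.40 ± 0.043). BIRC5, or survivin, a subunit of the chromosomal passenger complex, had 105, 106 and 105 CPM in the KO+IMPDH2 libraries, against 48.1, 47.1 and 49.2 CPM in the KO libraries (1.13 ± 0.022, adjusted p = 2.08e-16). The cyclins of S and G2 phase rose as well, CCNA2 by a log2 of 1.02 and CCNB1 by 0.94, as did FOXM1, the transcription factor of the G2/M programme, by 0.88.

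Genes of earlier cell cycle phases also rose, with smaller medians. Of 39 DNA replication genes 37 were called higher and 1 lower, with a median of 0.39. PCNA, the sliding clamp of DNA polymerases, had 178, 185 and 195 CPM in the KO+IMPDH2 libraries, against 111, 105 and 103 CPM in the KO libraries (0.81 ± 0.045, adjusted p = 8.95e-11). FEN1, the flap endonuclease that trims Okazaki fragments, had 198, 204 and 199 CPM in the KO+IMPDH2 libraries, against 116, 109 and 114 CPM in the KO libraries (0.83 ± 0.027). MCM5 and MCM4, subunits of the replicative helicase, rose by a log2 of 0.68 and 0.53, and TOP2A, topoisomerase II, by 0.80. The 1 member called lower was ORC2, an origin recognition subunit (log2 fold change -0.15). ORC2 did not pass with the length offset (adjusted p = 0.449). In that alternative the mean effective length of a gene's transcripts in each library, weighted by their estimated abundance, entered the fit. Among 28 G1/S regulators 19 were called higher and 3 lower (median 0.23). SKP2, the ubiquitin ligase subunit that degrades p27, had 37.2, 41.1 and 40.0 CPM in the KO+IMPDH2 libraries, against 20.4, 19.3 and 20.1 CPM in the KO libraries (0.98 ± 0.048). CDK2 rose by a log2 of 0.47 and CCND1, cyclin D1, by 0.33, while MYC fell by 0.32 and CDK4 by 0.22 on the log2 scale. CDKN2C, an inhibitor of CDK4 and CDK6, rose by 0.68. CDKN2A and CDKN2B, inhibitors of the same kinases, had 0 counts in all 18 libraries. Of 11 tested replication histone genes 7 were called higher and 1 lower, among them H1-2 with 20.3, 20.1 and 20.1 CPM in the KO+IMPDH2 libraries, against 12.1, 12.2 and 11.8 CPM in the KO libraries. Histone genes are near copies of each other and their messages lack poly(A) tails, so their values are uncertain in poly(A)-selected libraries. The 1 lower call, H2BC5, was lost in 9 of the alternatives.

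The enzymes around the returned reaction moved little beside IMPDH2. Of 14 tested members of the guanine nucleotide branch 5 were called higher, IMPDH2 included, and 5 lower, with a median of -0.055. Over all genes tested the shares were 25.7% and 25.1%. GMPS, GMP synthetase, which takes the XMP that IMPDH2 makes, had 104, 109 and 108 CPM in the KO+IMPDH2 libraries, against 88.0, 80.7 and 82.9 CPM in the KO libraries. All 3 KO+IMPDH2 libraries were above all 3 KO libraries (log2 fold change 0.35 ± 0.033, adjusted p = 6.56e-08). In the other groups GMPS averaged 113 CPM with the nuclear form, 112 CPM with the cytosolic form, 107 CPM with guanosine and 109 CPM in WT, so KO, with a mean of 83.9 CPM, stood alone at the low end. GUK1, which phosphorylates GMP to GDP, rose by a log2 of 0.13, and PNP, which splits guanosine and inosine, by 0.15. HPRT1, which salvages guanine and hypoxanthine, had 57.0, 64.0 and 62.1 CPM in the KO+IMPDH2 libraries, against 50.4, 50.4 and 50.9 CPM in the KO libraries (0.27 ± 0.043). GMPR, which turns GMP back into IMP, had 25.9, 25.8 and 27.4 CPM in the KO+IMPDH2 libraries, against 31.9, 29.3 and 30.2 CPM in the KO libraries and fell by 0.21 on the log2 scale, and NME4, a mitochondrial nucleoside diphosphate kinase, fell by 0.20. GMPR2, NME3 and NME7 were called lower at -0.12, -0.24 and -0.18, and these calls were lost with the length offset (adjusted p = 0.485, 0.108 and 0.0808). NME1 and NME2, which share a read-through locus so that reads between them are uncertain, and NME6 did not pass. GDA, guanine deaminase, had too few reads to be tested.

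Genes upstream and in salvage were called in both directions. Of 12 de novo purine genes 4 were called higher and 4 lower, not far from the 25.7% and 25.1% of all genes. PRPS2, which makes the ribose phosphate donor PRPP, had 57.8, 59.1 and 55.4 CPM in the KO+IMPDH2 libraries, against 45.3, 44.0 and 43.3 CPM in the KO libraries (0.38 ± 0.038), and its partner PRPSAP1 rose by a log2 of 0.29. ADSL and ATIC, which catalyse late steps on the way to IMP, fell by 0.31 and 0.28, with ADSL at 131, 132 and 136 CPM in the KO+IMPDH2 libraries, against 169, 162 and 165 CPM in the KO libraries. Of 21 tested genes of purine salvage and nucleoside transport 10 were called higher and 6 lower, or 6 and 3 with the length offset. NT5E, or CD73, which makes adenosine from AMP outside the cell, had 644, 655 and 658 CPM in the KO+IMPDH2 libraries, against 324, 319 and 318 CPM in the KO libraries, a 2.04-fold rise (1.03 ± 0.032, adjusted p = 8.47e-14). ADK, adenosine kinase, rose by a log2 of 0.37 and AK4, a mitochondrial adenylate kinase, by 0.59, while APRT, which salvages adenine, fell by 0.30. SLC28A3, a concentrative transporter that takes up guanosine and other nucleosides, had 0.324, 0.254 and 0.260 CPM in the KO+IMPDH2 libraries, against 1.44, 1.32 and 1.38 CPM in the KO libraries, so it fell 4.89-fold at a low level (-2.29 ± 0.23, adjusted p = 1.81e-07). Its mean was 0.269 CPM with the nuclear form, 0.38 CPM with the cytosolic form, 0.372 CPM with guanosine and 0.26 CPM in WT, which leaves KO as the 1 group with a raised level.

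Enzymes of deoxynucleotide synthesis mostly rose. Of 18 genes of pyrimidine and deoxynucleotide synthesis 13 were called higher and 1 lower (0 lower with the length offset and 2 with coding genes alone; median 0.25). RRM2, the regulated subunit of ribonucleotide reductase, had 276, 285 and 277 CPM in the KO+IMPDH2 libraries, against 161, 160.5 and 153 CPM in the KO libraries (0.82 ± 0.034, adjusted p = 1.94e-12), and RRM1, its partner, had 195, 206 and 204 CPM in the KO+IMPDH2 libraries, against 140.3, 131 and 129.7 CPM in the KO libraries (0.60 ± 0.039). All 3 reconstituted libraries exceeded all 3 knockout libraries for both subunits. TYMS, thymidylate synthase, rose by a log2 of 0.66, SHMT1, which supplies its folate, by 0.68, and DUT, which removes dUTP, by 0.38. RNA polymerase I and ribosome biogenesis genes, whose output is known to depend on GTP supply, did not move one way: 8 of 32 were called higher and 9 lower (median -0.055), shares near those of all genes. NOP56, a box C/D snoRNP protein, had 340.2, 359 and 368 CPM in the KO+IMPDH2 libraries, against 289.7, 276 and 274 CPM in the KO libraries (0.35 ± 0.036). GNL3, or nucleostemin, and GNL2, which are nucleolar GTP-binding proteins, fell by 0.29 and 0.34 on the log2 scale.

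**Figure D3:**
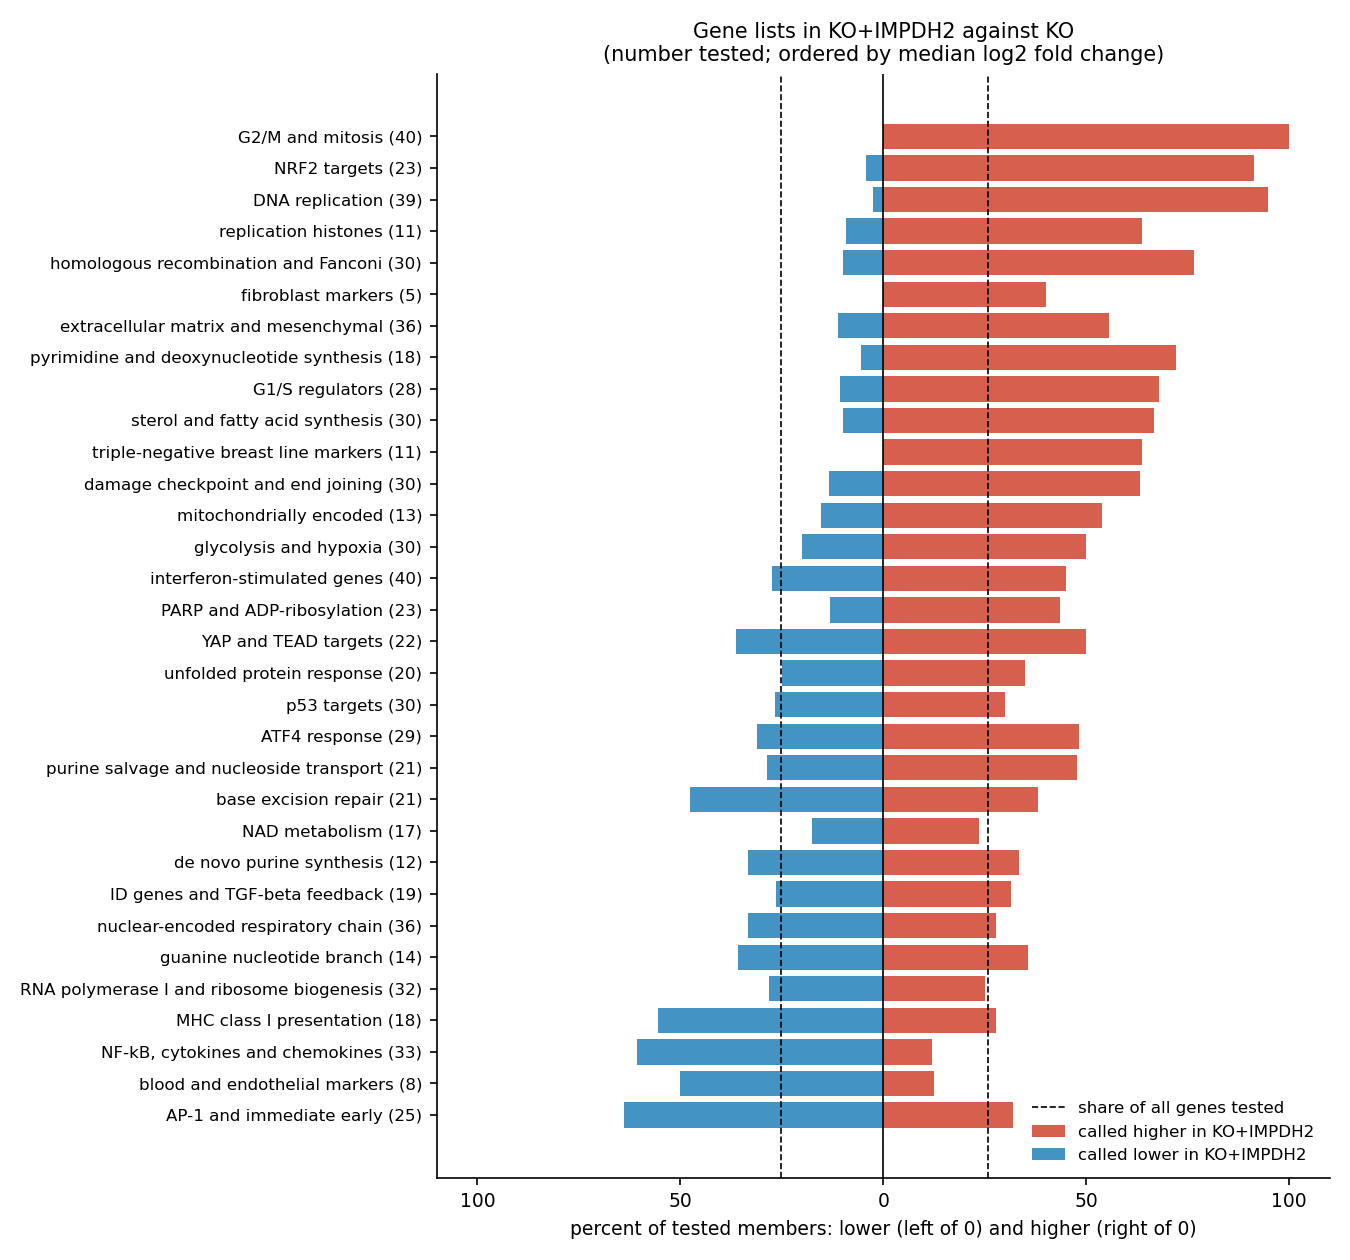
Percent of the tested members of each gene list called higher (red, right of 0) and lower (blue, left of 0) in KO+IMPDH2 against KO, ordered by median log2 fold change, with dashed lines at the shares over all genes tested. G2/M and mitosis, NRF2 targets and DNA replication have bars far past the right dashed line, the AP-1 and NF-kB lists have bars far past the left one, and RNA polymerase I genes end near both.

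Recombination and checkpoint genes mostly rose. Of 30 homologous recombination and Fanconi genes 23 were called higher and 3 lower (1 lower with the length offset; median 0.27). FANCA, a core subunit of the Fanconi complex, had 53.6, 56.6 and 55.2 CPM in the KO+IMPDH2 libraries, against 33.2, 32.2 and 33.7 CPM in the KO libraries (0.74 ± 0.041), and RAD54L, a recombination motor, rose by a log2 of 0.67. FANCI and FANCD2, the paired proteins ubiquitinated at cross-links, rose by 0.55 and 0.49, while RAD50, of the break-sensing MRN complex, fell by 0.28. In the list of damage checkpoint and end joining genes 19 of 30 were called higher and 4 lower (median 0.19). WEE1, the kinase that restrains CDK1, had 45.0, 45.7 and 45.8 CPM in the KO+IMPDH2 libraries, against 29.0, 29.0 and 28.6 CPM in the KO libraries (0.66 ± 0.030). CLSPN, the CHK1 adaptor, rose by 0.64 and POLQ, the polymerase of microhomology end joining, by 0.79. NHEJ1 and DCLRE1C, both of classical end joining, fell by 0.44 and 0.32. Base excision repair split, 8 of 21 higher and 10 lower (5 and 3 with the length offset), beside 25.7% and 25.1% of all genes. Its lower members include OGG1, the glycosylase for 8-oxoguanine, with 19.3, 20.0 and 20.2 CPM in the KO+IMPDH2 libraries, against 27.4, 26.3 and 29.0 CPM in the KO libraries (-0.48 ± 0.057), and MUTYH, which removes adenine opposite 8-oxoguanine (-0.32).

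PARP1, the enzyme that builds most poly(ADP-ribose) at DNA breaks, had 349, 353 and 353 CPM in the KO+IMPDH2 libraries, against 281, 263 and 271 CPM in the KO libraries. The groups did not overlap (log2 fold change 0.37 ± 0.026, adjusted p = 1.63e-09). Its means were 352 CPM in KO+IMPDH2, 377 CPM with the nuclear form, 364 CPM with the cytosolic form, 406 CPM with guanosine, 271 CPM in KO and 251 CPM in WT, so PARP1 in KO+IMPDH2 was above both KO and WT. Whole chromosome stretches also differed from WT, as given below, and their part in the PARP1 difference from WT was not tested. Among 23 PARP and ADP-ribosylation genes 10 were called higher and 3 lower (median 0.10), and 0 of the 3 lower calls held with the length offset. PARG, which removes poly(ADP-ribose), rose by a log2 of 0.16 and HPF1, the cofactor that directs PARP1 to serine, by 0.25. PARP16, an endoplasmic reticulum member, had 4.76, 4.03 and 3.78 CPM in the KO+IMPDH2 libraries, against 2.50, 2.53 and 2.06 CPM in the KO libraries (0.83 ± 0.11). Of 17 tested genes of NAD metabolism, whose product NAD is used by both IMPDH2 and PARP1, 4 were called higher and 3 lower, and 1 and 1 with the length offset. With 25.7% of all genes called higher and 25.1% lower, the counts set the list little apart. NAMPT, the rate-limiting enzyme of NAD salvage, had 465, 455 and 448 CPM in the KO+IMPDH2 libraries, against 390.0, 403 and 381 CPM in the KO libraries (0.22 ± 0.033).

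Interferon-stimulated genes were called higher more often than lower. Of 40 tested, 18 were called higher and 11 lower, with a median of 0.10. Over all genes tested 25.7% were called higher and 25.1% lower, so the lower count was near the share of all genes. IFI44, an antiviral effector, had 47.5, 49.2 and 48.8 CPM in the KO+IMPDH2 libraries, against 25.5, 23.4 and 23.3 CPM in the KO libraries (1.01 ± 0.036, adjusted p = 3.65e-13). IFIT2, one of the IFIT proteins that bind foreign RNA, had 208, 206 and 215 CPM in the KO+IMPDH2 libraries, against 117, 107 and 112 CPM in the KO libraries (0.91 ± 0.053, adjusted p = 2.06e-10). Its relatives IFIT3 and IFIT1 rose by a log2 of 0.66 and 0.62, and OAS3 and DDX60, sensors of double-stranded RNA, by 0.57 and 0.76. IFITM3, which blocks virus fusion at membranes, went the other way with 233, 218 and 213 CPM in the KO+IMPDH2 libraries, against 368, 362 and 388 CPM in the KO libraries (-0.75 ± 0.039, adjusted p = 3.39e-11), although its near copies in the IFITM cluster make its level uncertain. IRF7 and IRF9, transcription factors of the interferon response, fell by 0.80 and 0.55, and IFI6 and BST2 by 0.92 and 0.60. Summed over the list, the level was 2338, 2309 and 2314 CPM in KO+IMPDH2, against 2281, 2246 and 2283 CPM in KO, a small difference made of opposite parts. The GAAANNGAA letters printed above for IFI44 were held by 11 of 14 called-higher members with a promoter window and by 5 of 8 called-lower members.

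Inflammatory genes mostly fell. Of 33 tested NF-kB, cytokine and chemokine genes 4 were called higher (2 with the length offset) and 20 lower (median -0.27). ICAM1, an adhesion molecule for leukocytes, had 56.9, 50.3 and 47.5 CPM in the KO+IMPDH2 libraries, against 86.5, 98.6 and 95.7 CPM in the KO libraries (-0.86 ± 0.071, adjusted p = 1.64e-08). IL32, a cytokine, averaged 0.830 ± 0.25 CPM in KO+IMPDH2 and 3.97 ± 0.29 CPM in KO (SD, n = 3 each) and fell 4.77-fold (-2.26 ± 0.22). IL24 fell by 0.64 on the log2 scale, and members that act within the pathway, NFKB2, NFKBIE and TNFAIP3, fell by 0.33, 0.66 and 0.30. CSF3, the granulocyte growth factor, rose at a low level, with 3.78, 3.79 and 3.76 CPM in the KO+IMPDH2 libraries, against 2.50, 2.11 and 2.03 CPM in the KO libraries. Of 18 genes of MHC class I presentation 5 were called higher (3 with the length offset) and 10 lower (median -0.18). All genes tested had 25.7% called higher and 25.1% lower, so the higher count was near the share of all genes. PSMB9 and PSMB8, immunoproteasome subunits, fell by 0.57 and 0.47 and TAP1, the peptide transporter, by 0.22, while TAPBP, which loads the peptides, rose by 0.40. HLA-B had 453, 426 and 414 CPM in the KO+IMPDH2 libraries, against 539.5, 559.8 and 556 CPM in the KO libraries (-0.36 ± 0.038), and reads between HLA genes are uncertain.

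AP-1 and immediate early genes mostly fell too, with 8 of 25 called higher and 16 lower (10 lower with the length offset). The median was -0.31, and the shares of all genes tested were 25.7% higher and 25.1% lower. EGR1, an immediate early transcription factor, had 34.2, 36.1 and 34.7 CPM in the KO+IMPDH2 libraries, against 74.2, 77.7 and 72.9 CPM in the KO libraries (-1.10 ± 0.054, adjusted p = 1.77e-11), so each KO+IMPDH2 library was below each KO library. DUSP6 and DUSP1, phosphatases that dampen MAP kinases, fell by 0.54 and 0.61, IER3 by 0.34 and KLF4 by 0.42. FOSL1, the FRA1 subunit of AP-1, rose instead, with 344, 342 and 335 CPM in the KO+IMPDH2 libraries, against 229.7, 227 and 241 CPM in the KO libraries (0.55 ± 0.028), and FOSL2 rose by 0.35.

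Targets of NRF2, the regulator of antioxidant genes, rose almost throughout: 21 of 23 tested were called higher and 1 lower, with a median of 0.42. SLC7A11, the cystine importer, had 197, 179.5 and 183 CPM in the KO+IMPDH2 libraries, against 67.4, 77.5 and 65.2 CPM in the KO libraries (1.41 ± 0.072, adjusted p = 2.71e-11). NQO1, a quinone reductase, had 202, 201 and 213 CPM in the KO+IMPDH2 libraries, against 93.9, 99.9 and 90.1 CPM in the KO libraries (1.12 ± 0.049, adjusted p = 4.36e-12). Both were at least 2-fold higher with no overlap. TALDO1 and TKT, enzymes of the pentose phosphate pathway, which makes NADPH and the ribose of nucleotides, rose by 0.50 and 0.44, and TXNRD1, thioredoxin reductase, by 0.71. EPHX1, an epoxide hydrolase, was the member that fell, by 0.31.

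Stress lists were divided. In the ATF4 response 14 of 29 tested genes were called higher and 9 lower (median 0.051). PSAT1, of serine synthesis, had 85.7, 87.0 and 84.7 CPM in the KO+IMPDH2 libraries, against 57.8, 56.7 and 57.8 CPM in the KO libraries (0.58 ± 0.027), and the amino acid carriers SLC1A5 and SLC7A1 rose by 0.50 and 0.32. ATF4 itself, with 201, 202 and 204 CPM in the KO+IMPDH2 libraries, against 267, 263 and 255 CPM in the KO libraries, fell by 0.37 on the log2 scale. DDIT3, or CHOP, a factor induced by prolonged stress, had 16.1, 15.2 and 17.8 CPM in the KO+IMPDH2 libraries, against 42.5, 39.9 and 38.9 CPM in the KO libraries (-1.31 ± 0.059, adjusted p = 5.73e-12). Of 20 unfolded protein response genes 7 were called higher (3 with the length offset) and 5 lower, beside 25.7% and 25.1% of all genes, so the counts set the list little apart. HSPA5, the chaperone BiP, had 729, 734 and 752 CPM in the KO+IMPDH2 libraries, against 947, 1018 and 939 CPM in the KO libraries (-0.39 ± 0.031), ERN1, the sensor IRE1, fell by 0.46, and XBP1, the factor whose message IRE1 splices, rose by 0.34. Of 30 p53 targets 9 were called higher (2 with the length offset) and 8 lower, near the shares of all genes.

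In lipid and sugar metabolism, 20 of 30 sterol and fatty acid synthesis genes were called higher and 3 lower (12 higher with the length offset; median 0.20). EBP, a late enzyme of cholesterol synthesis, had 26.9, 26.0 and 27.9 CPM in the KO+IMPDH2 libraries, against 19.5, 20.5 and 20.0 CPM in the KO libraries (0.43 ± 0.038). SREBF2, the regulator of the pathway, rose by 0.32, while TM7SF2, a sterol reductase, fell by 0.74. Of 30 glycolysis and hypoxia genes 15 were called higher and 6 lower (3 lower with the length offset; median 0.13). LDHA, lactate dehydrogenase, had 1460.0, 1469 and 1442 CPM in the KO+IMPDH2 libraries, against 986, 1020.0 and 983 CPM in the KO libraries (0.55 ± 0.030), and PKM, TPI1 and PFKP rose by 0.37, 0.33 and 0.42. GAPDH went down, with 3009, 3054 and 2934 CPM in the KO+IMPDH2 libraries, against 3979, 3802 and 3902 CPM in the KO libraries (-0.38 ± 0.024), so the level of this common control gene differed between the groups. Of 36 nuclear-encoded respiratory chain genes 10 were called higher and 12 lower, not far from the 25.7% and 25.1% of all genes. Among them were SDHA, of complex II, with 190.5, 188 and 192 CPM in the KO+IMPDH2 libraries, against 119, 117 and 119 CPM in the KO libraries (0.68 ± 0.025), and NDUFA2, of complex I, which fell by 0.34. Of 13 mitochondrially encoded genes 7 were called higher (4 with the length offset) and 2 lower (1 without the filter on low counts). The 13 summed to 68240, 64680 and 65610 CPM in the KO+IMPDH2 libraries, against 61570, 62140 and 64160 CPM in the KO libraries. TMM scaling added 0.080 to each log2 fold change. The share of library totals was taken over all genes with a symbol starting MT-, not the 13 alone, and was 7.41% in KO+IMPDH2 and 7.72% in KO. How far the rise of the 13 as a set depends on the scaling was not tested. MT-ND2 had 6359, 6044 and 6159 CPM in the KO+IMPDH2 libraries, against 4867, 4923 and 5166 CPM in the KO libraries (0.31 ± 0.037) and MT-ND1, another complex I subunit, fell by 0.20.

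Matrix and adhesion genes mostly rose, with 20 of 36 tested called higher and 4 lower (median 0.26). Their summed level went the other way, with 24640, 25630 and 24830 CPM in the KO+IMPDH2 libraries, against 29480, 28750 and 28250 CPM in the KO libraries, and most of it was MMP1, at 16580 ± 525 and 21770 ± 776 CPM (SD, n = 3 each). TGFBI, a matrix protein induced by TGF-beta, had 21.6, 20.7 and 20.3 CPM in the KO+IMPDH2 libraries, against 7.92, 9.12 and 7.91 CPM in the KO libraries (1.33 ± 0.057, adjusted p = 3.29e-12). PLAU, the urokinase protease, had 413, 414 and 406 CPM in the KO+IMPDH2 libraries, against 229, 229 and 238 CPM in the KO libraries (0.83 ± 0.026). TNC, tenascin C, rose by 0.77, MMP14 by 0.70 and the receptor TGFBR2 by 0.61, whereas MMP1, a collagenase, and TIMP1, an inhibitor of such proteases, each fell by 0.39. YAP and TEAD targets divided, with 11 of 22 called higher and 8 lower (5 lower with the length offset). CCN2 and CCN1, matricellular proteins, fell by 0.85 and 0.47, with CCN2 at 555, 560.5 and 564 CPM in the KO+IMPDH2 libraries, against 1022, 946 and 1049 CPM in the KO libraries. PTPN14 and MYOF rose by 0.64 and 0.35. Of 19 tested ID genes and TGF-beta feedback genes 6 were called higher and 5 lower, near the 25.7% and 25.1% of all genes. ID1, an inhibitor of helix-loop-helix factors, had 9.98, 10.2 and 9.15 CPM in the KO+IMPDH2 libraries, against 3.38, 3.77 and 4.38 CPM in the KO libraries (1.35 ± 0.14), while ID4 fell by 0.54.

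Of the single genes chosen by size other than ENSG00000290315, IL13RA2, a decoy receptor for interleukin-13 on the X chromosome (chrX:115003975-115019977, GRCh38), had the largest fold rise. It had 29.1, 30.8 and 31.2 CPM in the KO+IMPDH2 libraries, against 1.13, 1.14 and 1.22 CPM in the KO libraries, a 26.1-fold rise (4.70 ± 0.10, adjusted p = 1.09e-15). In the other groups it averaged 1.30 ± 0.17 CPM with the nuclear form, 3.88 ± 0.090 CPM with the cytosolic form, 1.17 ± 0.24 CPM with guanosine and 1.07 ± 0.094 CPM in WT (SD, n = 3 each). KO+IMPDH2 therefore exceeded every other group, by a log2 of 4.55 ± 0.10 over the nuclear form (adjusted p = 8.27e-15), 2.97 ± 0.092 over the cytosolic form (adjusted p = 1.50e-12), 4.68 ± 0.11 over KO+guanosine and 4.83 ± 0.11 over WT. The other coding genes with large rises were MALL, a lipid raft protein, with 5.66, 4.90 and 4.30 CPM in the KO+IMPDH2 libraries, against 0.665, 1.12 and 1.06 CPM in the KO libraries (2.38 ± 0.15), and NEGR1, a cell adhesion molecule, with 13.5, 12.9 and 13.7 CPM in the KO+IMPDH2 libraries, against 3.22, 3.28 and 3.42 CPM in the KO libraries (2.01 ± 0.089). ENG, the TGF-beta co-receptor endoglin, rose by a log2 of 1.69, B4GALNT1, a ganglioside synthase, by 1.65, CCDC69 by 1.48 and GJB2, connexin 26, by 1.43. CACNA2D4, a calcium channel subunit with 78 summed counts in KO+IMPDH2 and 28 in KO, rose by 1.54, and that call was lost with the length offset (adjusted p = 0.0507). It met the level asked of named genes only through WT, which had 4877 counts.

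Among the largest falls was IL2RG, the gamma chain shared by several interleukin receptors, with 1.82, 1.74 and 1.97 CPM in the KO+IMPDH2 libraries, against 16.4, 16.6 and 16.1 CPM in the KO libraries, or 8.86-fold lower (-3.15 ± 0.11, adjusted p = 2.36e-13). KISS1, the precursor of kisspeptin, had 4.41, 4.22 and 4.06 CPM in the KO+IMPDH2 libraries, against 18.5, 15.8 and 19.4 CPM in the KO libraries (-2.08 ± 0.096). MDK, the growth factor midkine, had 15.7, 15.2 and 14.2 CPM in the KO+IMPDH2 libraries, against 55.8, 59.3 and 62.3 CPM in the KO libraries (-1.98 ± 0.069). EPHB1, an ephrin receptor, fell by a log2 of 1.99, and BSCL2, the lipid droplet protein seipin, by 1.68. DCAF8L1 fell by 1.97, EYS by 1.68, SIGLEC15, a sialic acid receptor, by 1.65 and NEDD9, a focal adhesion scaffold, by 1.61. MAGEA6, a cancer-testis gene with near-identical copies that make its count uncertain, had 17 summed counts over the 3 KO+IMPDH2 libraries and 223 over the KO libraries (-3.61 ± 0.28), and it met the level asked of named genes only through WT, with 5778 counts. For IL2RG and MDK the KO libraries were the highest of the series, at 16.1 to 16.6 and 55.8 to 62.3 CPM, while no library of the other groups exceeded 2.56 CPM of IL2RG or 18.8 CPM of MDK.

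**Figure D4:**
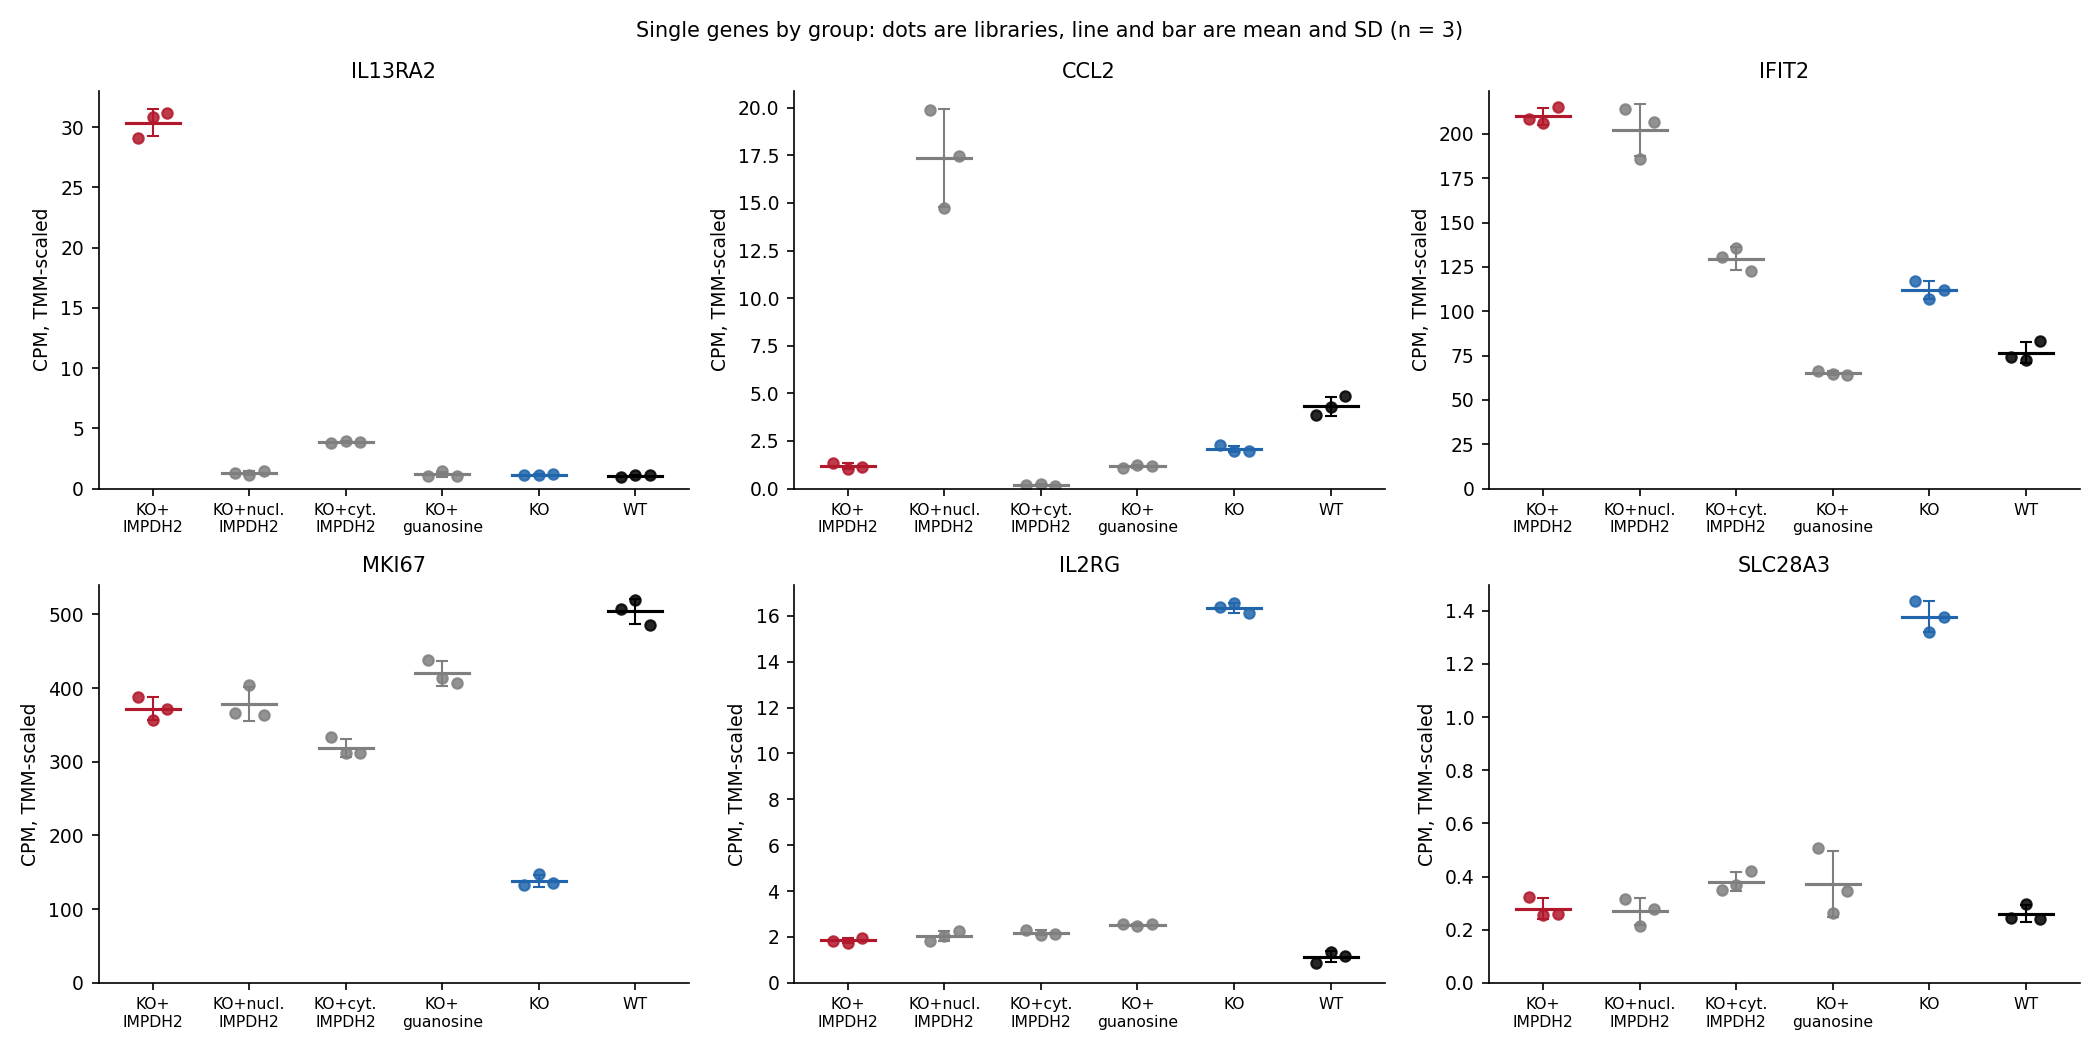
CPM of 6 genes in each library of the 6 groups, with KO+IMPDH2 at the left; dots are libraries, the line and bar the mean and SD of 3. IL13RA2 is high in KO+IMPDH2 alone, at 29.1 to 31.2 CPM, CCL2 in the nuclear form, and IL2RG and SLC28A3 in KO, while MKI67 lies at 357 to 389 CPM in KO+IMPDH2, above KO and below WT.

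The reconstituted line was also set against the 4 other groups in the same fit. These comparisons all share the 3 KO+IMPDH2 libraries, so their values are given side by side. Against the nuclear form 2301 genes passed, 1214 higher in KO+IMPDH2 (6.31%) and 1087 lower (5.65%), and 107 differed by at least 2-fold. Leaving out KO+IMPDH2 library 1 or 2 or nuclear library 1 took the number to 1460, 1506 and 1474, and with the length offset it was 559. Against the cytosolic form 4661 genes passed, 2588 higher (13.4%) and 2073 lower (10.8%), with 230 at 2-fold or more. The lower count was 1377 without cytosolic library 2, and 1719 genes passed in all with the length offset. Against KO+guanosine 7229 genes passed, 3648 higher (18.9%) and 3581 lower (18.6%), or 4162 with the length offset. Against WT 12417 genes passed, 5981 higher (31.1%) and 6436 lower (33.4%), and 2867 differed by at least 2-fold.

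The cell division genes set the comparisons apart. Of the 40 G2/M genes 0 were higher and 11 lower in KO+IMPDH2 than with the nuclear form (median -0.088), a count that was 5 without KO+IMPDH2 library 1 or nuclear library 1, 7 and 6 without nuclear library 2 or 3, 2 with the length offset and 17 with the DESeq2 Wald test. Against the cytosolic form 2 were higher (1 without cytosolic library 3 and 0 with the length offset) and 5 lower (median -0.0047), with 1 to 3 lower in 5 alternatives, among them leaving out KO+IMPDH2 library 1 (2 lower), cytosolic library 1 or 2 (3 each) and the length offset (1). Against KO+guanosine 0 were higher and 39 lower (median -0.36), and likewise against WT (median -0.51). MKI67 averaged 372 ± 16 CPM in KO+IMPDH2, 378 ± 23 CPM with the nuclear form, 319 ± 13 CPM with the cytosolic form, 419.9 ± 17 CPM with guanosine, 139 ± 8.0 CPM in KO and 504 ± 17 CPM in WT (SD, n = 3 each). It was lower in KO+IMPDH2 than in WT by a log2 of 0.44 (adjusted p = 2.12e-07) and did not pass against the nuclear form (-0.024 ± 0.048, adjusted p = 0.834). Of 39 replication genes 1 was higher and 27 lower against KO+guanosine (15 lower with the length offset). The 1 higher call was lost when any 1 KO+guanosine library was left out, without KO+IMPDH2 library 2 or 3, and with DESeq2's size factors, its Wald test or the replicate block. Against WT 10 replication genes were higher and 11 lower (median -0.0049), but 16 were higher when coding genes alone were fitted.

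Many interferon and inflammatory genes were higher in KO+IMPDH2 than in the cytosolic line. Of 40 interferon-stimulated genes 28 were higher and 0 lower (median 0.41), against 9 higher and 1 lower in the comparison with the nuclear form (median 0.041), where between 3 and 4 were higher without KO+IMPDH2 library 2 or 3 or nuclear library 2, and 3 with the length offset. Summed over the list, the level was 2338, 2309 and 2314 CPM in KO+IMPDH2, 2262, 2105 and 2252 CPM with the nuclear form, 1845, 1839 and 1846 CPM with the cytosolic form, 1673, 1646 and 1655 CPM with guanosine and 1726, 1694 and 1763 CPM in WT. KO itself, with 2281, 2246 and 2283 CPM, lay with KO+IMPDH2 and the nuclear form above the cytosolic form, KO+guanosine and WT. IFIT2 was 2.74-fold higher in KO+IMPDH2 than in WT, 3.22-fold higher than with guanosine and 1.62-fold higher than with the cytosolic form. Of 33 NF-kB and cytokine genes 22 were higher and 2 lower than with the nuclear form (14 and 1 with the length offset), and 19 higher and 0 lower than with the cytosolic form. Sterol genes were 23 higher and 0 lower against the cytosolic form (12 higher with the length offset), 1 higher and 18 lower against KO+guanosine (10 lower with the length offset) and 2 higher and 25 lower against WT (median -0.64). All 13 mitochondrially encoded genes were higher than in WT (median 0.55).

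**Figure D5:**
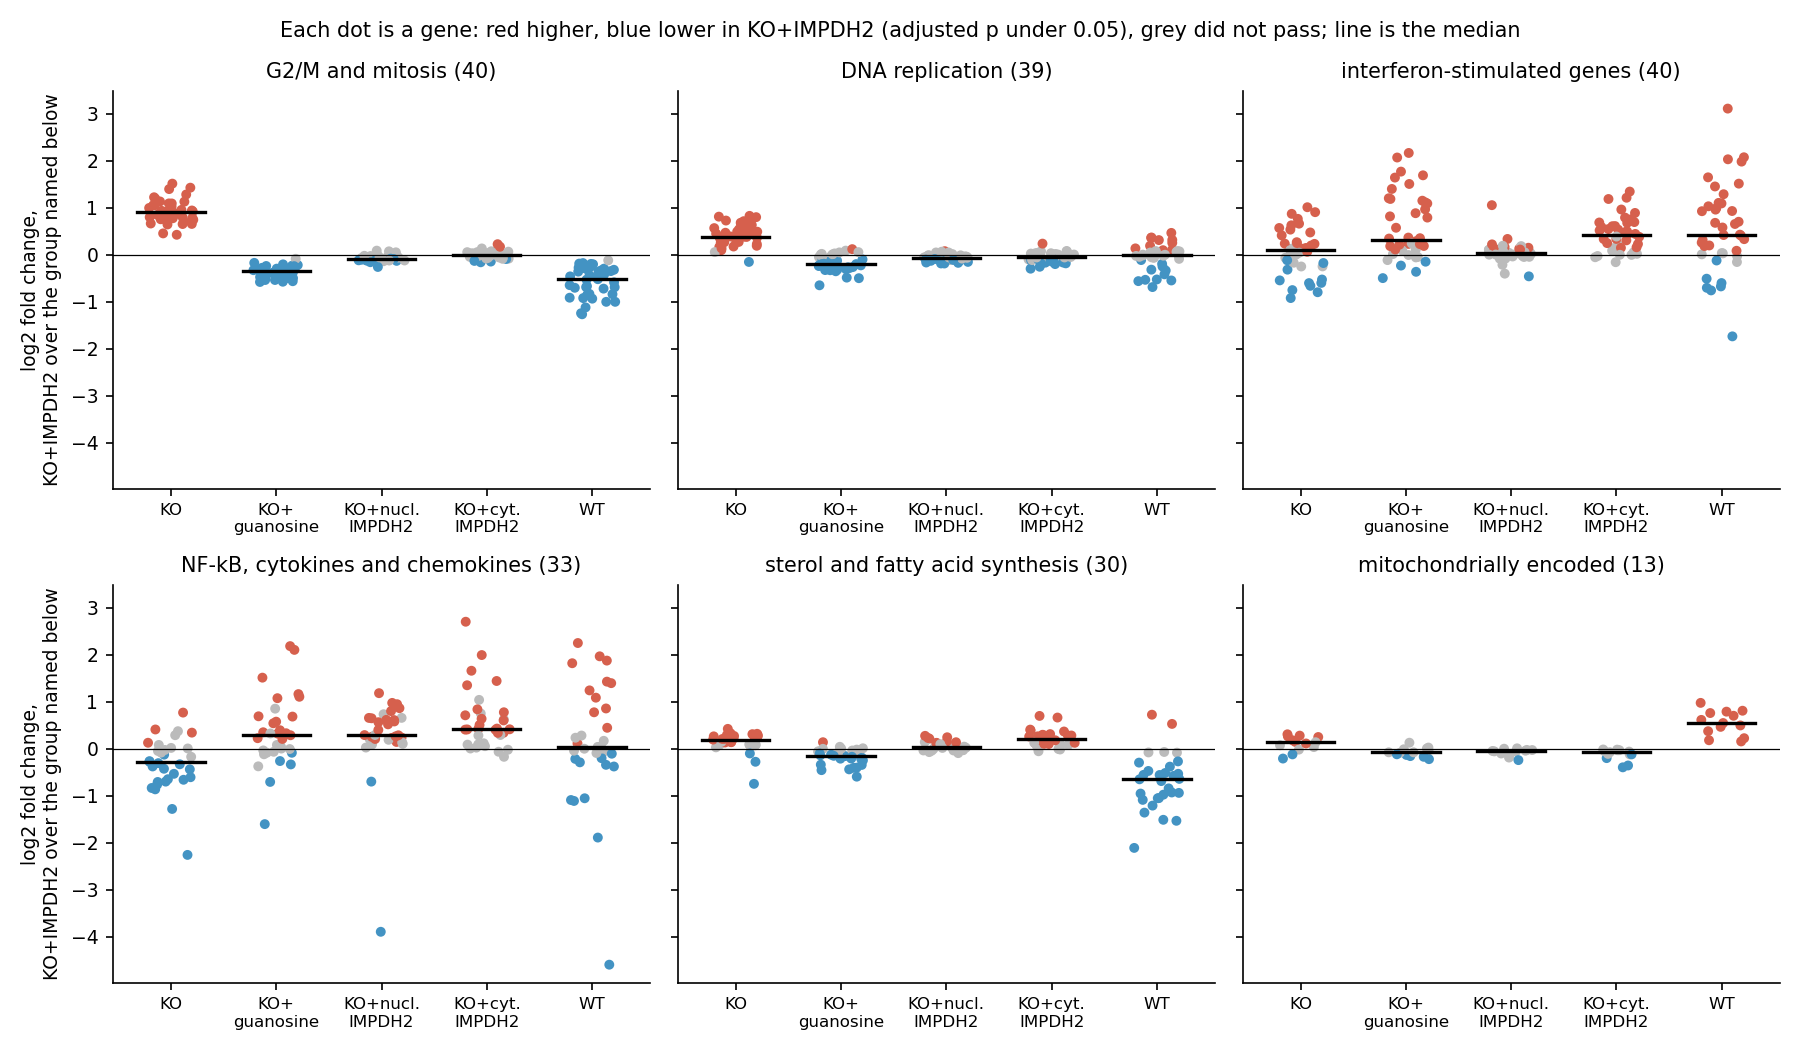
Log2 fold change of KO+IMPDH2 over each of the 5 other groups for the members of 6 gene lists; each dot is a gene, red called higher, blue lower, grey not passed, and the line is the median. G2/M genes lie above 0 against KO (median 0.90) and below 0 against KO+guanosine (median -0.36) and WT (median -0.51), and interferon-stimulated genes lie mostly above 0 against the cytosolic form (median 0.41). All columns share the KO+IMPDH2 libraries.

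CCL2, a chemokine that draws monocytes, differed in KO+IMPDH2 from both localised forms, in opposite directions. It had 1.33, 1.03 and 1.14 CPM in the KO+IMPDH2 libraries, against 19.9, 14.7 and 17.5 CPM with the nuclear form and 0.175, 0.224 and 0.120 CPM with the cytosolic form. KO+IMPDH2 lay between them, 14.8-fold below the nuclear form (-3.89 ± 0.14, adjusted p = 2.98e-12) and 6.53-fold above the cytosolic form (2.71 ± 0.21, adjusted p = 6.73e-08). Also lower than with the nuclear form were TIE1, an endothelial receptor kinase, with 2.14, 1.92 and 2.08 CPM in the KO+IMPDH2 libraries, against 10.0, 10.9 and 10.7 CPM in the KO+nuclear IMPDH2 libraries, and KALRN, an exchange factor for RAC, by a log2 of 1.20. CST1 and CST2, salivary cystatins that are near copies of each other and so uncertain, were higher than with the cytosolic form by a log2 of 2.17 and 2.31. PIK3CG, a catalytic subunit of PI3 kinase, was lower than with the cytosolic form, with 1.66, 1.70 and 1.51 CPM in the KO+IMPDH2 libraries, against 6.84, 7.13 and 6.50 CPM in the KO+cytosolic IMPDH2 libraries, and DCLK1, a microtubule kinase, was lower by 1.43. MMP3, stromelysin, had 64.0, 66.3 and 64.3 CPM in the KO+IMPDH2 libraries, against 13.1, 13.7 and 13.3 CPM in the KO+guanosine libraries (2.28 ± 0.11, adjusted p = 5.65e-11), and its level in WT was 6.17 ± 0.18 CPM (SD, n = 3).

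Some of the largest differences from WT were also present in KO. EPB41L3, a membrane skeleton protein, had 103, 102 and 102 CPM in the KO+IMPDH2 libraries, against 0.733, 0.720 and 0.540 CPM in the WT libraries, and 82.7, 78.4 and 81.5 CPM in the KO libraries. PGM5 had 37.7, 38.7 and 40.9 CPM in the KO+IMPDH2 libraries, against 0.207, 0.212 and 0.180 CPM in the WT libraries, and 32.9, 30.4 and 33.8 CPM in the KO libraries. CACNA2D4, the calcium channel subunit named above, averaged 0.474 ± 0.061 CPM in KO+IMPDH2 and 0.160 ± 0.032 CPM in KO, against 32.4 ± 1.9 CPM in WT (SD, n = 3 each). For these 3 genes the KO+IMPDH2 libraries lay nearer to KO than to WT. The median log2 fold change in windows of at least 50 neighbouring coding genes, 265 in all, had an SD of 0.069 between KO+IMPDH2 and KO (range -0.24 to 0.21) and of 0.29 between KO+IMPDH2 and WT (range -1.17 to 0.67), the lowest at chr1:11273206-19312146 (GRCh38). Differences from WT can thus fall on whole chromosome stretches, and whether the edited lines and WT differ in copy number was not tested.

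Markers of the labelled line and of other cell types were read in the same libraries. VIM, the mesenchymal filament vimentin, had 4076, 4117 and 3990.0 CPM in the KO+IMPDH2 libraries, against 3364, 3248 and 3615 CPM in the KO libraries. In a list for triple-negative lines 7 of the 11 tested genes were called higher in KO+IMPDH2 and 0 lower (4 higher with the length offset). Over all genes tested the shares were 25.7% and 25.1%. The list joins markers expected to be present with markers expected to be low, GATA3 and EPCAM among them, so its count is no measure of the line. ESR1 and PGR, the hormone receptors such lines lack, had 2 and 2 summed counts over the KO+IMPDH2 libraries and 6 and 5 over the KO libraries, and CDH1, E-cadherin, had 5 and 16. Of 16 blood and endothelial markers 8 were tested, 1 called higher and 4 lower, with the lower count at 2 with the length offset or without KO library 3 or KO+IMPDH2 library 2 or 3, and the higher call lost without KO+IMPDH2 library 3. Their sum was 591, 584 and 574 CPM in KO+IMPDH2 and 734, 694 and 708 CPM in KO, nearly all of it CD68, a lysosomal protein of many cells. Those called lower were PTPRC, KDR, PECAM1 and CD68. PTPRC, the pan-leukocyte protein CD45, had 21 summed counts over the KO+IMPDH2 libraries and 55 over the KO libraries, and ITGAM, an integrin of myeloid cells, had 2 and 7. CD3E and CDH5, which define T cells and endothelium, had 0 counts in both groups. The part of other cell types in the fall of IL2RG was not tested. A count of 0 over 3 libraries allows a level of up to 0.0182 CPM in KO+IMPDH2 and 0.0183 CPM in KO, from 3 counts, which covers counting error only. Of 10 fibroblast markers 5 were tested and 2 called higher (1 with the length offset), with sums of 9.60, 8.96 and 8.59 CPM in KO+IMPDH2 and 6.73, 7.97 and 7.17 CPM in KO.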

How the data were processed

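Poly(A) RNA of 18 MDA-MB-231 libraries was sequenced. Per the submitters' processing notes, the tools were Trim Galore (version 0.6.10) for trimming and Salmon (version 1.10.0) for quantification, and the build listed is hg19. The authors deposited estimated counts per transcript, not normalized, in 1 table and in a file per library, which also holds TPM and an effective length as the authors' quantifier wrote them. TPM served only as weights of the effective lengths, which entered 1 alternative, the length offset. Both copies of the estimated counts were identical. The index used is not given in the sources used here, and whether counting used strand is not given either, so overlapping and antisense genes are uncertain.

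Estimated counts of 252048 transcripts were summed to 62749 genes by the gene field of the transcript name and rounded to whole numbers. Genes failing edgeR's filterByExpr were left out, which kept 19252. All 18 libraries were fitted with 1 mean per group (edgeR 4.0.16 quasi-likelihood, TMM, R 4.3.3), with a Benjamini-Hochberg adjusted p under 0.05 as the call. The approximate standard errors are the absolute log2 fold change divided by the square root of the quasi-likelihood F statistic. DESeq2 1.42.0 was an alternative. Tables and figures were made with Python 3.11.15, pandas 2.3.3, numpy 2.4.6 and matplotlib 3.10.9. The test was run on simulated counts in which few genes were changed. That setting differs from these data, so it does not check the scaling or the calls here. Named genes are IMPDH2, IMPDH1, PARP1 and the guanine branch, the 12 coding genes per direction with the largest called, non-overlapping differences from KO at a mean log2 CPM of at least 1 (5 per direction in the other comparisons), and from each list up to 6 members with the smallest adjusted p in its prevailing direction and 2 in the other. IFIT1, IFI6, IRF7, BST2 and the markers with few reads were named after their values were seen. A few genes that the rule names are not reported here. Members and lists were chosen with earlier results of these data known. Gene positions are GENCODE 29 (GRCh38), found for 57804 genes by identifier. Promoter windows are from RefSeq (GRCh38.p14) and matched 12441 of the tested genes by symbol. Depth is given in the opening of the results, and the common biological coefficient of variation was 4.87%. Alternatives were another scaling, no filter, DESeq2, a replicate block, the 6 libraries alone, a length offset, coding genes alone and each library left out.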

Additional observations from a re-analysis of the deposited data

How the results depend on the processing

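Against KO, 9781 genes passed. The number was 9777 with DESeq2 size factors (53.1% of them higher, in place of 50.6%), 9462 without the filter, 9310 with DESeq2's Wald test, 9584 from the 6 libraries alone, 8533 among coding genes alone and 8898 to 9140 with a library left out. With the length offset 6537 passed, 3264 of them higher. Its counts were 4162 against KO+guanosine (2189 higher, 1973 lower), 559 against the nuclear form (333 and 226) and 1719 against the cytosolic form (1085 and 634), and the cause was not tested. It turned MDM2 (-0.0041, adjusted p = 0.977) and EGFR (-0.043, adjusted p = 0.520) to values below 0, and 46 calls of named genes were lost. Asking for a 2-fold difference left 955 genes. Leaving out a library gave 1460 to 1703 calls against the nuclear form, 625 to 788 of them lower, and 1377 to 2170 lower calls against the cytosolic form. The log2 fold change of IMPDH2 stayed between 3.66 and 3.69 with a library left out. Libraries with the same number did not deviate together (correlations of -0.086 to 0.079), so the numbers pair nothing, and with the replicate block 9663 genes passed. Depth limits genes with few reads, since 3 counts over the KO+IMPDH2 libraries already correspond to 0.0182 CPM.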
